A study of Mus musculus with 6 samples.

Results

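Wnt signalling components were examined in mouse lateral ventricular choroid plexus, the vascular fringe of secretory epithelium that makes cerebrospinal fluid, at embryonic day 15 (E15) and in the adult. A component was any transcript cluster (the exon probe sets that together measure, in most cases, 1 gene) with Wnt signalling in its biological process annotation, or with the symbol Apcdd1 or one that began with Wnt, Fzd, Rspo, Sfrp or Dkk. Clusters that also carried the terms cell adhesion or cell cycle were left out. This rule found 41 of the 3956 clusters in the gene-level and splicing index tables joined, 16 of them by symbol and 25 by annotation alone. Of the 41, 17 were at least 2-fold higher at E15 (41.5%, against 24.4% of all clusters). Another 3 were at least 2-fold higher in the adult (7.32%, against 22.9% of all clusters), and the remaining 21 differed by less. The R-spondins Rspo2 and Rspo3 and the inhibitor Apcdd1 headed the E15 side, and the secreted antagonist Sfrp5 headed the adult side.

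Wnt proteins are secreted lipid-modified ligands that bind Frizzled receptors together with co-receptors such as Lrp5, Lrp6 or Ror2. In the canonical branch this stops the destruction of beta-catenin, which enters the nucleus and activates target genes with TCF/LEF factors, and R-spondins amplify the signal by keeping Frizzled at the cell surface. In the embryo the cortical hem, a Wnt-rich strip of dorsal telencephalon, lies directly beside the forming choroid plexus.

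The series compared E15 with adult Swiss Webster mice, with no genetic change or treatment at either age. RNA from 3 pools at E15 (30 embryos of mixed sex in each, as labelled) and 3 adult pools (10 females in each) was amplified in 2 rounds and hybridised to 1 Affymetrix mouse exon array per pool. The supplementary description gives other pool sizes than the labels, calls the embryos unsexed and gives the adults as over 3 months old, while the methods give 10 weeks for adults used in histology. Age and sex composition changed together and cannot be told apart. Although the series text speaks of epithelial cells, the protocols describe whole plexus, so its epithelium, stroma, vessels and blood all contributed RNA, and for every gene below fewer cells of a type and less RNA per cell cannot be told apart.

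The deposited tables give 1 log2 value for each age and cluster, already merged over the 3 arrays and centred near 0. Each difference below was taken as adult minus E15, so a negative one is higher at E15, and folds were obtained by raising 2 to its absolute size. Because the arrays were merged the spread between replicates is unknown and no test could be run here for any value below, beyond the filters that the authors had applied, and no level can be compared between genes. The 1805 clusters of the gene-level table had passed the authors' filters (on expression, a corrected p of 0.05 and a 2-fold change), and the 3369 of the splicing index table had passed a filter on detection above background and a test of splicing and had been kept for a splicing index of at least 0.5, whatever their difference. Of the 41 components, 20 were in the gene-level table and 21 were in the splicing index table alone. A Wnt gene that passed neither filter has no entry: values were held for 5 of the 19 Wnt genes that RefSeq lists, 4 of 10 Fzd, 3 of 4 Rspo, 1 of 4 Sfrp and 2 of 4 Dkk genes.

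The 17 components at least 2-fold higher at E15 made up 41.5% of the 41, where 24.4% of all 3956 clusters were that much higher at E15. The 3 that were at least 2-fold higher in the adult made up 7.32%, where the share over all clusters was 22.9%. All 3 were among the 16 components found by symbol (18.8%), and none of the 25 found by annotation alone was. In either direction 47.3% of all clusters reached 2-fold. The median difference of the components was -0.76 (1.70-fold), from -4.27 to 3.55, and that of all clusters was -0.16. A difference below 0 was found in 33 of the 41 components (80.5%) and in 54.1% of all clusters. Among the 21 components held in the splicing index table alone, which all differed by less than 2-fold, 16 lay below 0 (76.2%, against 56.5% of such clusters). In the gene-level table, where every cluster had passed a 2-fold limit, 51.2% of clusters were higher at E15 and 48.8% in the adult, and the 20 components there divided 17 to 3. These shares describe a set of genes that was chosen with results of these data known, and carry no test.

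**Figure D1:**
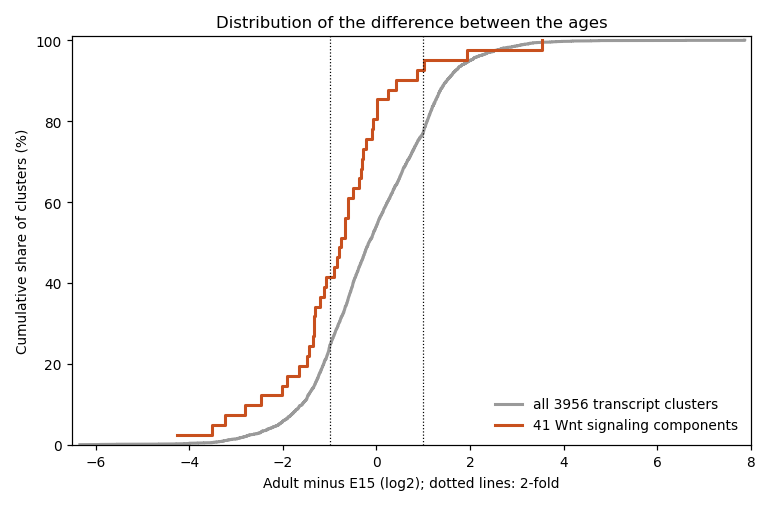
Cumulative share of clusters (%) against the adult minus E15 difference (log2) for the 41 Wnt signalling components (orange) and for all 3956 clusters (grey); dotted lines mark 2-fold. The orange line lies above the grey one over most of the range because 33 of 41 components had a difference below 0, and it ends at 3.55 with Sfrp5.

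The R-spondins had the largest median difference of the 6 role groups, -3.24. Rspo2 (cluster 6835372) had a value of 2.04 at E15 and -2.23 in the adult, a difference of -4.27 or 19.3-fold, which ranked 9th among the 925 clusters enriched at E15. Rspo3 (6773020) stood at 1.85 at E15 and -1.39 in the adult, a difference of -3.24 or 9.42-fold, ranked 42nd. Rspo1, the remaining family member with an entry, was held in the splicing index table alone, with 0.35 at E15 and -0.33 in the adult (1.60-fold). The family therefore shared a direction and ran from 1.60-fold to 19.3-fold. These are secreted agonists that bind Lgr receptors and the membrane ubiquitin ligases that remove Frizzled.

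Wnt ligands were likewise higher at E15, 3 of the 5 by at least 2-fold, with a median difference of -1.36. Of all clusters 24.4% were at least 2-fold higher at E15 and 54.1% had a difference below 0. Wnt8b (6869944), a ligand of the embryonic dorsal telencephalon, had 1.44 at E15 and -1.37 in the adult, a difference of -2.81 or 7.01-fold. Wnt5a (6817763), the classical ligand of beta-catenin-independent signalling, had 0.78 at E15 and -1.24 in the adult, a difference of -2.03 or 4.07-fold. Wnt2b (6907887), another ligand of the cortical hem, had 0.80 at E15 and -0.56 in the adult, a difference of -1.36 or 2.56-fold. The pair without a 2-fold difference was Wnt7b, at -0.30 (1.23-fold), and Wnt5b, the closest relative of Wnt5a, at -0.22 (1.16-fold). The Wnt5 paralogues thus had unequal differences, and whether that gap is larger than the spread between arrays cannot be read from merged values.

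Receptors divided between the ages, with 3 of 6 at least 2-fold higher at E15 and 2 in the adult, where the shares of all clusters were 24.4% and 22.9%. Fzd1, Fzd3 and the receptor tyrosine kinase Ror2, which binds Wnt5a, were at least 2-fold higher at E15. Fzd1 (6935966) had 0.68 at E15 and -0.80 in the adult, a difference of -1.48 or 2.79-fold. Ror2 (6813244) had 0.84 at E15 and -0.61 in the adult, a difference of -1.45 or 2.74-fold. Fzd3 (6825410), which acts in axon guidance and planar cell polarity, had 0.58 at E15 and -0.50 in the adult, a difference of -1.08 or 2.11-fold. It was -0.93, below 2-fold, once each age was re-centred on its median over all clusters. Fzd4 and Fzd7 ran the other way. Fzd4 (6962444), a receptor for Wnts and for norrin in vessels, had -0.95 at E15 and 0.99 in the adult, a difference of 1.94 or 3.85-fold. Fzd7 (6749763) had -0.53 at E15 and 0.48 in the adult, a difference of 1.01 or 2.02-fold, and it ranked 860th of the 880 clusters enriched in the adult, close to the 2-fold limit of the table. All 4 Frizzled genes with an entry had passed the gene-level filter, 2 in each direction. Lrp4, a member of the low-density lipoprotein receptor family that binds Wnt antagonists, was held in the splicing index table alone at -0.61 (1.53-fold).

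Secreted and membrane-bound modulators had 5 of 9 at least 2-fold higher at E15 and 1 of 9 in the adult (11.1%), beside the same shares of 24.4% and 22.9%. Sfrp5 (6873179), a secreted Frizzled-related protein that binds Wnts outside the cell, had -1.79 at E15 and 1.76 in the adult, a difference of 3.55 or 11.7-fold, which ranked 21st among the clusters enriched in the adult. Apcdd1 (6861458), a membrane glycoprotein that inhibits the pathway at the cell surface, had 2.34 at E15 and -1.17 in the adult, a difference of -3.51 or 11.4-fold, ranked 21st among the clusters enriched at E15. These 2 inhibitors were therefore of like size and opposite direction.

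Of the other modulators, Wif1 (6771207), a secreted inhibitor that binds Wnts directly, had 1.07 at E15 and -0.85 in the adult (3.78-fold). Cpz (6937426), a carboxypeptidase with a Frizzled-like cysteine-rich domain, had 0.72 and -0.94 (3.15-fold). Dkk2 (6901435), a ligand of Lrp5 and Lrp6, had 0.83 and -0.47 (2.47-fold). Frzb (6888151), another secreted Frizzled-related protein, had 0.63 and -0.59 (2.32-fold), so it and Sfrp5, which belong to the same family of antagonists, were enriched at opposite ages. Sostdc1, a secreted antagonist of BMP and Wnt signals, and Fgf9, a growth factor that entered through its annotation, were 1.34-fold and 1.83-fold higher in the adult in the splicing index table. Re-centring brought the difference of Fgf9 to 1.02, past 2-fold. The cluster that holds Dkk1, an Lrp6 antagonist, also holds Ppp1r2 and a predicted gene. Its difference of 0.02 cannot be assigned to any of them.

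**Figure D2:**
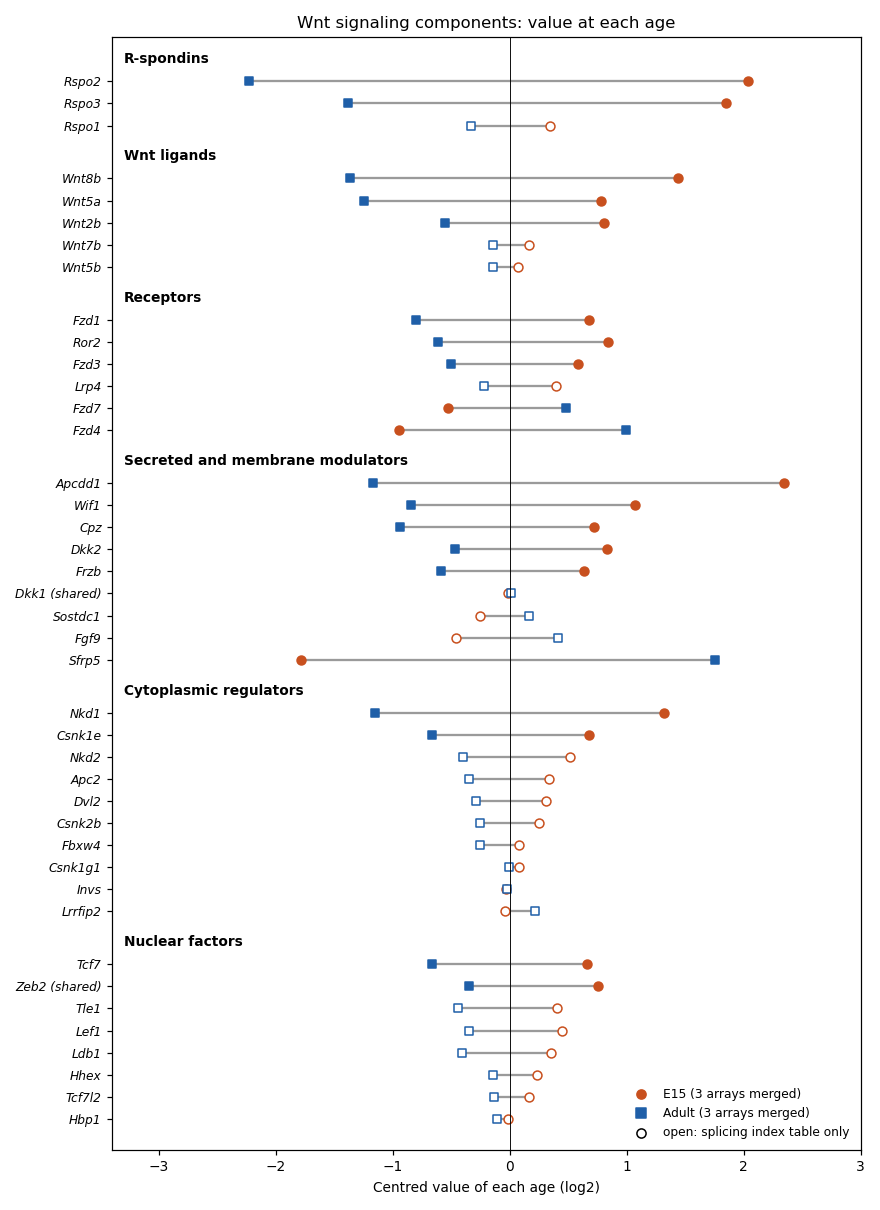
Centred value (log2, horizontal axis) of each of the 41 components at E15 (orange circles) and in the adult (blue squares), grouped by role, each symbol being 1 value merged over 3 arrays; open symbols are components in the splicing index table alone. R-spondins and Wnt ligands have E15 to the right throughout, Frizzled receptors lie in both directions, and Sfrp5 (-1.79 at E15, 1.76 in the adult) and Apcdd1 (2.34 and -1.17) run in opposite directions.

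Because TCF/LEF factors are the nuclear end of the pathway, the promoters of the components were searched for the sequences they bind. RefSeq promoter windows (GRCm38.p6) were matched by symbol for 32 of the 41 components, and 4 variants of the TCF/LEF site were sought on both strands in the 250 bases before each start. The variants searched were CTTTGAA with its relative CTTTGAT, and CTTTGTA with its relative CTTTGTT, none of which can overlap another at the same position. The promoters of 4 components are shown, 2 with a match and 2 without, from both sides of the comparison: Wnt8b and Cpz were higher at E15, and Fzd7 and Sfrp5 were higher in the adult. Capitals mark a match. The windows are printed on the strand of the gene, where the letters read ATCAAAG in Cpz and AACAAAG in Fzd7, and the motif itself lies on the opposite strand.
Wnt8b, chr19:44493222-44493471, plus strand: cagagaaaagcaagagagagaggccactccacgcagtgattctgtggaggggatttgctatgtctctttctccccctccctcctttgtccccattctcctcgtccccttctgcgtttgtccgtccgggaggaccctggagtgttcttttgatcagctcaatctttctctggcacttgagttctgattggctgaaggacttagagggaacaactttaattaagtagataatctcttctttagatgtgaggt
Cpz, chr5:35525627-35525876, minus strand: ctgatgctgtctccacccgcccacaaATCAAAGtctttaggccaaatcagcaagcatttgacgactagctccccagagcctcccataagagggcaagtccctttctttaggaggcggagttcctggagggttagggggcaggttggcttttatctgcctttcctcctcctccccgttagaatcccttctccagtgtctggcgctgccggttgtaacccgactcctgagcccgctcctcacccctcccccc
Fzd7, chr1:59481897-59482146, plus strand: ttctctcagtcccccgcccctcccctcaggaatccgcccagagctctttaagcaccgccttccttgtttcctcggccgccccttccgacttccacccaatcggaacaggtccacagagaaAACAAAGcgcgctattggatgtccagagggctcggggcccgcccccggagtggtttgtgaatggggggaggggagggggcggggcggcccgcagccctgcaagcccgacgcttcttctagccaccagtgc
Sfrp5, chr19:42202253-42202502, minus strand: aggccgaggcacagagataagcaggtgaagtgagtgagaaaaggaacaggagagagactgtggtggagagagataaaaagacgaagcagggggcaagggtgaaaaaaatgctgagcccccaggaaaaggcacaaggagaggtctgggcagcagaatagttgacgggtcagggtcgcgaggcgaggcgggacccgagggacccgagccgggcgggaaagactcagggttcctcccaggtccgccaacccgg

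Counted from the start, the match in Cpz began at position -224 and that in Fzd7 at -130. The 4 windows differed in base composition, from 48.4% G and C in Wnt8b to 65.2% in Fzd7, with 57.6% in Cpz and 59.6% in Sfrp5. At least 1 match was held by 7 of the 32 components (21.9%), and by 16.8% of all 27025 genes with a window. Counted by window, 7 of 53 (13.2%) held one, against 14.8% of all 32851 windows, in which the single motifs occurred at 4.46% (CTTTGAA), 3.21% (CTTTGAT), 3.20% (CTTTGTA) and 5.03% (CTTTGTT). Among the components with a window, a match was present in 1 of 12 at least 2-fold higher at E15 (Cpz) and in 1 of 3 higher in the adult (Fzd7). It was also present in 5 of 17 below 2-fold (Lef1, Apc2, Tcf7l2, Wnt5b and Dkk1). Dkk1 had 2 matches and is placed here by its shared cluster, whose value cannot be assigned to it. Rspo2, Apcdd1, Rspo3, Wnt5a and Fzd3, all at least 2-fold higher at E15, had no window and were not searched. These short sequences occur in many promoters, and a match describes letters in a window, not binding.

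Cytoplasmic regulators had 2 of 10 at least 2-fold higher at E15 (below the 24.4% of all clusters), none higher in the adult and a median difference of -0.56, nearer to 0 than any other role group. Nkd1 (6977993), an antagonist that binds Dishevelled and is itself induced by Wnt signals, had 1.32 at E15 and -1.16 in the adult, a difference of -2.47 or 5.56-fold. Csnk1e (6837105), a kinase of Dishevelled, had 0.67 at E15 and -0.67 in the adult, a difference of -1.34 or 2.53-fold. Nkd2, the paralogue of Nkd1, was at -0.92 (1.89-fold), Apc2, a relative of the Apc scaffold, at -0.68 (1.60-fold), and Dvl2, a Dishevelled protein, at -0.60 (1.52-fold). The casein kinase 2 subunit Csnk2b (1.43-fold) and the F-box protein Fbxw4 (1.26-fold) were also higher at E15 by small amounts. Csnk1g1, a membrane-bound casein kinase (-0.08), Invs, a protein of cilia (0.0034), and Lrrfip2, a Dishevelled partner (0.26), lay close to 0.

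Nuclear factors had a median difference of -0.78, and 2 of 8 were at least 2-fold higher at E15, a share close to the 24.4% of all clusters. Tcf7 (6788172), a TCF/LEF factor, had 0.66 at E15 and -0.66 in the adult, a difference of -1.32 or 2.51-fold. The cluster of the zinc-finger repressor Zeb2 (6886356), which it shares with a second transcript, had 0.76 at E15 and -0.35 in the adult (2.16-fold), and a difference of -0.96, below 2-fold, after the same re-centring. Tle1, a co-repressor of TCF/LEF factors, was at -0.85 (1.80-fold), Lef1 at -0.80 (1.74-fold) and the LIM-domain cofactor Ldb1 at -0.76 (1.70-fold). The homeobox repressor Hhex (-0.38), Tcf7l2 (-0.29) and the HMG-box repressor Hbp1 (-0.09) were below 1.5-fold. The 3 TCF/LEF factors with an entry therefore ranked Tcf7, Lef1, Tcf7l2 by size of difference, all on the E15 side.

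Grouped together, the R-spondins, ligands, receptors and modulators had 13 of 23 at least 2-fold higher at E15, 3 higher in the adult and a median of -1.22. The cytoplasmic and nuclear components had 4 of 18 (22.2%, close to the 24.4% of all clusters), none and -0.64. By the cellular component annotation, which the rule did not use, 11 of 21 components with an extracellular location were at least 2-fold higher at E15 (52.4%) and 3 in the adult (14.3%), where 29.9% and 25.2% of all 595 extracellular clusters were. Of the 20 components without that location, 6 were at least 2-fold higher at E15 (30.0%) and none in the adult, where the shares over all 3361 such clusters were 23.5% and 22.5%. A nuclear location gave 2 of 11 components at least 2-fold higher at E15 (18.2%) and none in the adult, where 30.1% and 11.7% of all 891 nuclear clusters were. All 3 adult-enriched components carried an extracellular annotation, the receptors Fzd4 and Fzd7 among them, while the membrane inhibitor Apcdd1 did not. The annotation therefore does not mark secreted proteins alone. The annotation for the calcium-modulating branch of the pathway covered 6 components, which all had a difference below 0, 4 of them by at least 2-fold, where 54.1% of all clusters were below 0 and 24.4% reached 2-fold at E15. Negative regulation of the pathway covered 6, with 3 at least 2-fold higher at E15 and none in the adult, and sets of this size are given as values only.

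Other genes of the pathway, taken from 7 lists of known members, targets and partners, had 38 clusters outside the rule. Of these 15 were at least 2-fold higher at E15 (39.5%) and 4 were higher in the adult (10.5%), with a median of -0.73, where the shares of all clusters were 24.4% and 22.9%. Target genes of canonical signalling gave 16 clusters, 7 of them at least 2-fold higher at E15 and none in the adult, where Tiam1, an exchange factor for Rac, was 1.71-fold higher. The 7 were the guidance receptor Ephb2 (4.04-fold), the cyclin Ccnd1 (3.64-fold), the Notch ligand Jag1 (3.28-fold), the survivin gene Birc5 (2.80-fold), the transcription factors Myc (2.59-fold) and Mycn (2.37-fold), and the BMP pseudoreceptor Bambi (2.19-fold). Ccnd1, Birc5, Myc and Mycn are also genes of dividing cells, and the cell cycle list was higher at E15 throughout, as given below. With the components that are also targets added, the list had 21 clusters and a median of -0.93.

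Heparan sulphate proteoglycans, which hold Wnts at the cell surface, and the enzymes that modify them divided evenly between the ages. Of 9 clusters 4 were at least 2-fold higher at E15 and 4 in the adult (44.4% each). All clusters also divided almost evenly, with 24.4% and 22.9%. Gpc3, a glypican, had 2.85 at E15 and -3.07 in the adult, a difference of -5.92 or 60.4-fold. Sulf2, an extracellular sulphatase, had 1.96 and -2.03 (15.9-fold), and the polymerase Ext1 (5.52-fold) and the syndecan Sdc1 (2.23-fold) were higher at E15 as well. Their counterparts in the adult were the glypican Gpc4 (2.62-fold), the sulphotransferase Hs6st2 (2.43-fold) and the syndecans Sdc2 (2.12-fold) and Sdc4 (2.11-fold). Members of the same families, Gpc3 with Gpc4 and Sdc1 with Sdc2 and Sdc4, were thus enriched at different ages. Of the remaining lists, the co-receptor Ptk7 (3.43-fold), the secreted antagonist Igfbp4 (2.92-fold), the planar cell polarity protein Vangl2 (2.18-fold) and the transcription factor Sox7 (2.16-fold) were the clusters past 2-fold, all at E15. The destruction complex list, of 31 genes, had only 8 clusters with an entry, 2 of them outside the rule. Neither of these 2 reached 2-fold, and Gsk3b, the kinase that marks beta-catenin for destruction, differed by 0.06.

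Marker lists of cell types and of the cell cycle also differed between the ages. The counts below stand beside 24.4% of all clusters at least 2-fold higher at E15 and 22.9% in the adult. All 21 clusters of the cell cycle list were at least 2-fold higher at E15, with a median of -2.95, led by Top2a (25.1-fold). The mesenchyme and matrix list had 15 of 19 at least 2-fold higher at E15, none in the adult and a median of -1.33, from Col3a1 at -3.14 to Fbln1 at 0.38. Endothelial markers had 5 of 7 and a median of -1.10 (Cdh5, 4.30-fold), erythroid markers 6 of 8 and -2.54 (Hbb-y, 46.8-fold), and markers of neural progenitors and cortical hem 8 of 9 and -1.36 (Fabp7, 6.63-fold), with none of these higher in the adult. Choroid plexus epithelial markers ran the other way, with 7 of 11 clusters at least 2-fold higher in the adult, 3 at E15 and a median of 1.70. Prlr, the prolactin receptor, was at 7.87 and Lmx1a, a factor shared with the hem list, at -1.14.

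Markers of mature neurons (6 of 8 at least 2-fold higher in the adult, Camk2a 6.33-fold, with Nefm 3.28-fold higher at E15) and of oligodendrocytes (3 of 4, with Cldn11 2.00-fold higher at E15) were also mostly on the adult side. The share of all clusters at least 2-fold higher in the adult was 22.9%. Most of the neuronal clusters past 2-fold in the adult, Camk2a among them, were held in the splicing index table alone. They had therefore not passed the authors' gene-level filters. The same holds for some of the mesenchymal and endothelial clusters past 2-fold at E15. The macrophage list had 1 of 5 in each direction, Cd74 (8.96-fold, adult) and Mrc1 (5.14-fold, E15). Because the values are centred for each cluster, no list has a summed level at either age, and whether defining markers such as Ttr reached a high level could not be checked. Of the 20 epithelial markers listed 10 genes had an entry of their own or in a shared cluster. The median of the components, -0.76, lay between those of the epithelial list and the mesenchymal, endothelial and hem lists. So did the median of all clusters, -0.16, and the position is therefore not particular to the components. The part of cell makeup in the Wnt differences was not tested.

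**Figure D3:**
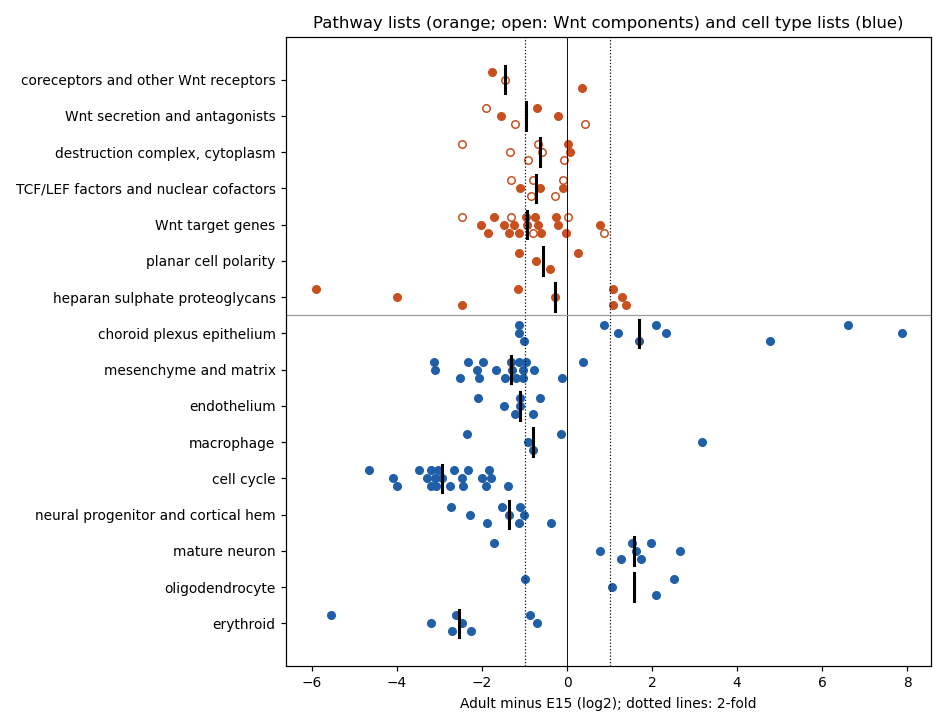
Adult minus E15 difference (log2, horizontal axis) of each cluster in the 7 pathway lists (orange, open where the cluster is one of the 41 components) and the 9 cell type lists (blue); short black bars are list medians and dotted lines mark 2-fold. Of the 21 target genes 18 lie below 0 (median -0.93) and 3 above it, proteoglycans lie on both sides, the cell cycle list wholly below -1 and the epithelial list mostly above 1 (median 1.70).

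At exon level, the deposited splicing index, a signed score of adult against E15 that compares exon signal with the signal of its gene, was held for 34 components. Its size was at least 0.5 by selection, so a value records where a component stood among selected clusters. The median size was 0.92, and 0.90 in the whole table of 3369. The components had a median of 10 probe sets behind the index, from 3 to 41, where the table had 13. Rspo2 (2.09), Rspo3 (1.74), Wif1 (1.73), Hbp1 (1.39) and Nkd1 (1.29) had the largest positive indices, and Ror2 (-1.62), Nkd2 (-1.39), Fzd1 (-1.30), Sfrp5 (-1.25), Rspo1 (-1.24) and Wnt7b (-1.05) the largest negative ones. Those of Fzd1 and Sfrp5 each rested on 4 probe sets.

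Index and difference were compared by sign. Over the 1285 clusters of the table with a 2-fold difference, 77.5% had an index of the opposite sign, and over the 13 such components 7 did (53.8%). Rspo2, Rspo3, Wif1 and Nkd1 were higher at E15 with a positive index and Sfrp5 was higher in the adult with a negative one, all of opposite sign, whereas Ror2 and Fzd1 were higher at E15 with a negative index. Among the R-spondins, Rspo1 had the sign opposite to that of Rspo2 and Rspo3. Hbp1, Nkd2, Rspo1 and Wnt7b combined an index of size 1 or more with a difference below 2-fold. Over all 34 components 19 were of opposite sign (55.9%), against 62.5% of the table. Both quantities share the gene signal, no exon can be named from a single score, and the sign of 13 components carries no test.

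**Figure D4:**
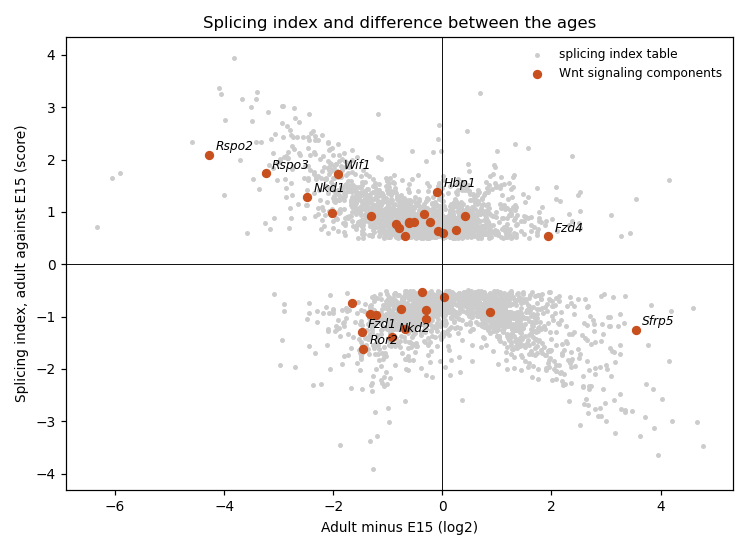
Splicing index (score, vertical axis) against adult minus E15 difference (log2, horizontal axis) for the 34 components with an index (orange) and the 3369 clusters of the table (grey). The empty band around 0 is the minimum size of 0.5; Rspo2, Rspo3, Wif1 and Nkd1 lie at upper left and Sfrp5 at lower right, on the diagonal of the grey points, while Ror2 and Fzd1 lie below it at lower left.

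For comparison, 2 other signalling pathways were found by annotation alone, those with the most clusters of 9 terms looked up. Unlike the Wnt rule, this search used no symbols and kept clusters with the terms cell adhesion or cell cycle. Transforming growth factor beta receptor signalling had 8 of 17 clusters at least 2-fold higher at E15 (47.1%), none in the adult and a median of -0.99. Notch signalling had 4 of 21 (19.0%), 3 in the adult (14.3%) and a median of -0.40. The Wnt components, with 41.5%, 7.32% and -0.76, lay between them, and all clusters had 24.4%, 22.9% and -0.16.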

How the data were processed

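Total RNA from pooled whole lateral ventricular choroid plexus (3 pools per age) was hybridised to 6 mouse exon arrays. The authors summarised and normalised the arrays with Affymetrix Power Tools by robust multichip averaging (RMA), removed the genes with the lowest expression, tested the ages without pairing, with a Benjamini-Hochberg corrected limit of 0.05, kept changes of at least 2-fold, and deposited log2 values merged over the 3 arrays of each age and centred for each cluster. The deposited splicing index is a score that the authors made from exon-level PLIER values after a filter on detection above background and by an analysis of variance, with a minimum size of 0.5. Its scale, the software versions and the genome build are not given in the sources used here, so no array coordinates are printed. The deposited number of probe sets behind each index was used as given. One more table held 1218 clusters, which are those common to the other tables, with 0 values that differed. The columns of the authors' fold change and direction of regulation were not used.

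The tables were joined by transcript cluster ID. Differences were the adult minus the E15 log2 value, and a component or listed gene was called at 2-fold or more. The planned limma fit, the omission of each array and the replicate block need values of single arrays and were not run, since 0 columns held one. Signal over background could not be read from centred values, and the number of arrays limits the precision.

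The members and all lists were chosen with earlier results of these data known. Every component, each pathway gene past 2-fold and at most 2 genes of a cell type list (the largest difference in each direction) were named. The value of 1 gene of the cell type lists is not reported here. The role groups, location classes, the printed promoters, the 2 comparison pathways (of 9 signalling terms looked up, those with the most clusters) and the limit of the motif search to 250 bases before the start were chosen after values were seen. With the 50 bases after the start included, 16.9% of all windows held a motif and the same 7 components did. Promoters came from RefSeq. Protein sequences were not analysed here. Alternatives were other fold limits, re-centring, stricter annotation, parts of the rule, single tables and the omission of shared clusters. Scripts were tested on simulated data. Python 3.11.15, numpy 2.4.6 and matplotlib 3.10.9 were used.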

Additional observations from a re-analysis of the deposited data

How the results depend on the processing

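The count of components at least 2-fold higher at E15 (17) was 9 with the symbol part of the rule only (16 clusters), 11 with the splicing index table only (34 clusters, an alternative chosen after seeing the data), 8 at a 3-fold and 6 at a 4-fold limit. The count higher in the adult (3) was 2 at 3-fold and with the splicing index table only, and 1 at 4-fold, namely Sfrp5. The median difference (-0.76) was -1.19 with the symbol part only and -1.41 in the gene-level table only, which holds no cluster below 2-fold. The count of pathway list clusters outside the rule that were higher at E15 (15) was 23 at 1.5-fold. Smaller sets and other limits change counts by themselves. The share at least 2-fold higher at E15 changed too, from 41.5% of all components to 56.2% with the symbol part only. The other alternatives moved these results by less than 1.5 times. Re-centring each age on its median added 0.15 to every difference and gave 15 and 4 components, of which 18 of the original 20 stayed past 2-fold in the same direction, while Fzd3 (-0.93) and Zeb2 (-0.96) did not and Fgf9 (1.02) was added. It moved 10 of the 41 differences by more than 1.5 times, all of them small, such as Wnt7b (to -0.15), Tcf7l2 (to -0.14) and Wnt5b (to -0.07), and among these changed the sign of Hbp1 (to 0.06) and Csnk1g1 (to 0.07).

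No paired analysis was possible because the columns hold 1 merged value per age and carry no replicate numbers. For the same reason no array was left out and no spread is known, so small differences, such as those of Fzd7 or Fzd3 near the 2-fold limit, have no error to be read against here, although both had passed the authors' test. Another cluster for the same symbol could not be tried, since 0 symbols among the components had more than 1 cluster.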

Other observations

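The values of both ages of a cluster sum to near 0, with a median size of the sum of 0.08 over the components and over all clusters. Apcdd1 had a sum of 1.17, at the 99.8th percentile of sizes over all clusters, followed among the components by Wnt5a (-0.46) and Rspo3 (0.46), both at the 97.0th, and the shared cluster of Zeb2 (0.40) at the 95.8th. How the centre of each cluster was set is not stated in the sources used here.

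The terms cell adhesion and cell cycle removed 5 clusters that otherwise met the rule. The secreted matricellular protein Wisp1 (-0.61) and the p120 catenin gene Ctnnd1 (-0.25) carried the first. Gsk3b (0.06), the casein kinase 2 catalytic subunit Csnk2a2 (-0.81) and a shared cluster of the cytoskeletal linker Macf1 (0.43) carried the second. None of the 5 reached 2-fold.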
